A study of Mus musculus with 4 samples.

Results

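Integrins and laminins are the receptors and the sheet-forming ligands by which heart cells hold on to the matrix around them. The genes described here are those with a mapped symbol of an integrin alpha chain, an integrin beta chain, the integrin beta-like gene Itgbl1, or a laminin alpha, beta or gamma chain. They were found by symbol among the named probe sets, and 35 of the 19505 genes measured fit. They are 16 integrin alpha chains, 8 integrin beta chains, Itgbl1 and 10 laminin chains.

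An integrin is a pair of 1 alpha and 1 beta chain that spans the cell membrane, binds matrix proteins outside and couples to actin inside through linkers such as talin and kindlin. A laminin is a cross-shaped trimer of 1 alpha, 1 beta and 1 gamma chain, and laminin networks with type IV collagen, nidogen and perlecan make up the basement membrane that coats each cardiomyocyte and capillary. In the heart the muscle laminin is built on the Lama2 chain and the vascular laminin on the Lama4 chain, and cardiomyocytes bind them through beta-1 integrins and through dystroglycan.

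Hearts came from ICR (Jcl:ICR) mice injected at postnatal day 1 with a viral vector carrying Tbx6, a T-box transcription factor of the early mesoderm, or with PBS. They were taken after 7 or 30 days, and 1 Clariom S array was made per injection and day, 4 in all, so no group has a replicate. The growth protocol puts the injection beneath the skin of the back, whereas other label fields name the neonatal heart as the target. The control was buffer and not an empty vector, and the sex of the mice, the number of hearts behind an array and the vector's promoter are not stated in the labels. Values are on the log2 scale as deposited, so a difference of 1 is 2-fold. Each array's highest background probe set (5.77 to 6.05) served as a floor, and readings not above it are called at background. Readings of different genes depend on their probes and are not set against each other.

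The heart label was checked against markers. All 8 cardiomyocyte markers were above background on the 4 arrays, and 0 of them passed the test for day, although several sit near the top of the scale, where differences are compressed. The PBS array of day 7 stood apart in lung epithelial markers and, by summed values alone, in fat and red cell markers. The log2 of the summed linear values of 8 lung epithelial markers was 13.36 there against 7.06 to 7.63 on the other arrays. Of the 8, 4 were at background there and 7 to 8 on the others. The sum was 12.20 against 9.40 to 11.01 for 7 fat markers and 12.57 against 9.64 to 10.93 for 3 red cell markers. By the median it was not the highest array for either. The fat median was 7.10 there and 7.88 on the Tbx6 array of day 30. The red cell median was 7.72 there and 7.97 on the Tbx6 array of day 7. Values without that array are therefore given where they matter.

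Of the 35 genes, 19 were above background on all 4 arrays and 12 were at background on all 4. Genes entered the test when their 4-array mean reached the median gene's (5.30), which 9753 did, 23 of the 35 among them. The untested ones were Itga11, Itgad, Itgae, Itgal, Itgax, Itgb2, Itgb4, Lama1, Lama3, Lama5, Lamb3 and Lamc3, all of them at background on every array. Their readings ran from 2.91 to 5.50, and no difference is given for any of them. They include Itgb2 and the alpha chains Itgal, Itgax and Itgad, which pair with it on leukocytes. They also include Itgb4 and the Lama3 and Lamb3 chains of the epithelial basement membrane, and Lama1, a chain of the early embryo. Lama5, a chain of the vascular basement membrane, was among them too.

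The first comparison set the 2 arrays of day 30 against the 2 of day 7, with injection as a further term. The laminin chains Lama2, Lama4, Lamb1 and Lamc1 fell, and so did the shared integrin beta chain Itgb1 and the alpha chains Itga2, Itga5 and Itga9, which pair with it. Of the 23 tested genes 8 fell and 3 rose, and 12 did not pass the test. In the same test 12.1% of all 9753 genes fell and 14.2% rose. The median difference of the 23 genes was -0.33, against -0.016 over all genes tested. The test was limma with injection and day as terms and Benjamini-Hochberg adjustment over the 9753 genes. It leaves 1 residual degree of freedom, so each standard error (SE) is borrowed largely from other genes and is not a measured spread between hearts.

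Among the laminins the alpha chains moved together. Lama2, the alpha chain of the muscle laminin, read 14.31 (PBS) and 14.27 (Tbx6) on the day 7 arrays and 12.95 and 13.02 on those of day 30. Both day 30 readings lay below both day 7 readings. Lama2 thus fell by 1.30 on the log2 scale (SE 0.24, limma adjusted p = 0.00587), and the level at day 7 was 2.47 times that at day 30. Lama4, the alpha chain of capillary laminins, read 13.87 and 13.78 at day 7 and 12.56 and 12.55 at day 30, after PBS and Tbx6. It fell by 1.27 (SE 0.24, limma adjusted p = 0.00663). The 2 alpha chains fell by nearly the same amount, and the log2 ratio of Lama2 to Lama4 changed by -0.039 between days after PBS and by -0.027 after Tbx6.

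Lamc1, the gamma chain shared by nearly all laminins, followed them. It read 13.96 (PBS) and 13.59 (Tbx6) on the day 7 arrays and 12.33 and 12.18 on those of day 30. The days did not overlap, and Lamc1 fell by 1.52 (SE 0.24, limma adjusted p = 0.00305), a level 2.87 times higher at day 7.

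The beta chains went apart. Lamb1, the more widely expressed beta chain, read 12.65 (PBS) and 12.25 (Tbx6) on the day 7 arrays and 10.35 and 10.93 on those of day 30. It was lowest on the PBS array of day 30 and fell by 1.81 (SE 0.29, limma adjusted p = 0.00332). Of the 23 tested genes Lamb1 had the largest fall, with a level 3.50 times higher at day 7. Lamb2, the beta chain known from synapses, kidney and vessels, read 11.71 and 11.83 at day 7 and 12.42 and 12.36 at day 30, after PBS and Tbx6. Both day 30 readings were the higher ones, with a difference of 0.63 (SE 0.24), but Lamb2 did not pass the test (limma adjusted p = 0.0916). The log2 ratio of Lamb2 to Lamb1 moved by 3.01 between days after PBS, an 8.07-fold shift, and by 1.85 after Tbx6, a 3.61-fold shift. This ratio was not tested, and it shows unequal change of the 2 chains and not their amounts.

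**Figure D1:**
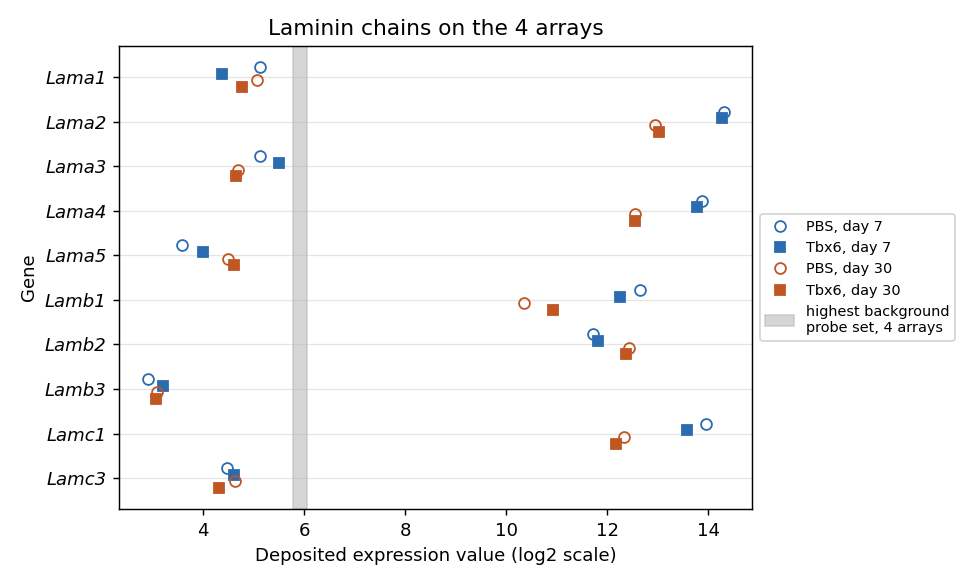
Deposited log2 values (x axis) of the 10 laminin chains (y axis) on the 4 arrays, with circles for PBS, squares for Tbx6, blue for day 7 and orange for day 30. The grey band spans the highest background probe set of the 4 arrays (5.77 to 6.05), and Lama2, Lama4, Lamb1 and Lamc1 lie lower at day 30, Lamb2 higher, and the other 5 chains left of the band on every array.

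Promoters of Lama2, Lamb1 and Lamb2 are shown because the first pair fell while the last did not. They are RefSeq windows of 300 bases on GRCm38.p6, from 250 bases before the gene's start to 50 after it, printed in the gene's direction. Capitals mark GC boxes, the letters GGGCGG on either strand. Lama2 is at chr10:27616893-27617192 on the minus strand, Lamb1 at chr12:31265043-31265342 on the plus strand and Lamb2 at chr9:108479612-108479911 on the plus strand.
Lama2: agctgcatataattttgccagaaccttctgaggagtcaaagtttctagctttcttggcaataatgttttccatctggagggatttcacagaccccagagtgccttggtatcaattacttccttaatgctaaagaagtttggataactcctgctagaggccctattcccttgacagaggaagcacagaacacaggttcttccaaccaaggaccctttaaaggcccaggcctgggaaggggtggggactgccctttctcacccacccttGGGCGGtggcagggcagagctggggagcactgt
Lamb1: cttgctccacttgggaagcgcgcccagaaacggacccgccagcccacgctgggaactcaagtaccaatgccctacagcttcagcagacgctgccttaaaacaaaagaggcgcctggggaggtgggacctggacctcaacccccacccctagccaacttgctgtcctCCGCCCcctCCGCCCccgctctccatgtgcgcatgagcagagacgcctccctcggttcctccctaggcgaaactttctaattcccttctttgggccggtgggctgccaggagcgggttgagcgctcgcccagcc
Lamb2: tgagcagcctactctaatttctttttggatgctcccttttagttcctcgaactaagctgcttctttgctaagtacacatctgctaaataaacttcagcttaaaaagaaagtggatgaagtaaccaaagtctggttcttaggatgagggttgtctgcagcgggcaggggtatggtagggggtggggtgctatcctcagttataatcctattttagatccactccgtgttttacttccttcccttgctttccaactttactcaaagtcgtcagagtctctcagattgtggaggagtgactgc
The Lamb1 window held 2 GC boxes, 18 CpG dinucleotides and 63.7% G and C, the Lama2 window 1 GC box, 1 CpG and 50.3%, and the Lamb2 window 0 GC boxes, 4 CpG and 44.0%. Lamb1, which fell, thus has a CpG-rich window, but Lama2, which also fell, does not. Of all 32851 promoter windows of this length, 35.7% held a GC box. A match of letters is a description and says nothing of which factor binds.

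Integrin beta chains followed next. Itgb1, the beta chain that pairs with most matrix-binding alpha chains, read 17.39 (PBS) and 16.86 (Tbx6) on the day 7 arrays and 16.17 and 16.01 on those of day 30. It was highest on the PBS array of day 7 and lower on both arrays of day 30. Itgb1 fell by 1.03 (SE 0.25, limma adjusted p = 0.0179). The fit without the PBS array of day 7, with day alone as a term, gave -0.77 and an adjusted p of 0.089 by limma. Leaving out the PBS array or the Tbx6 array of day 30 also ended the call (limma adjusted p = 0.0717 and 0.109).

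Itgb6, the epithelial partner of Itgav that activates TGF-beta, went the other way. It read 8.63 and 8.53 at day 7 and 9.19 and 9.83 at day 30, after PBS and Tbx6, and rose by 0.93 (SE 0.27, limma adjusted p = 0.0369). The readings of the days did not overlap, but the call was lost without the PBS array of day 7 (limma adjusted p = 0.0709), the Tbx6 array of day 7 (0.0962) or the Tbx6 array of day 30 (0.207). It was also lost without the filter on low values (limma adjusted p = 0.0678). Itgb7, the partner of Itga4 and Itgae on lymphocytes, read 8.14 and 8.08 at day 7 and 8.47 and 9.54 at day 30. Its difference of 0.90 (SE 0.31) did not pass (limma adjusted p = 0.0645) and rested mostly on the Tbx6 array of day 30, without which it was 0.36. It passed in 4 of 12 alternatives, among them the fit without the PBS array of day 30 and that with arrays centred on their medians (limma adjusted p = 0.0224 and 0.0431).

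The other beta chains did not pass. Itgb3, the vitronectin and fibrinogen receptor chain of platelets and vessels, read 7.59 and 7.61 at day 7 and 6.45 and 7.51 at day 30, so that the PBS array of day 30 alone was low. Its difference was -0.62 (SE 0.30, limma adjusted p = 0.165). Without the Tbx6 array of day 30 it was -1.15 and passed (limma adjusted p = 0.0466), and without the PBS array of day 30 it was -0.088 (limma adjusted p = 0.865). Itgb5, another partner of Itgav, lay between 9.84 and 10.11 on all 4 arrays, with a difference of 0.13. Itgb8, which with Itgav releases TGF-beta, was above background only on the PBS array of day 7, where it read 5.83. Its fitted difference of -0.53 (limma adjusted p = 0.164) rests on 3 readings at background and gives no direction. Itgbl1 resembles the stalk of a beta chain but lacks a membrane anchor. It was at background after PBS at day 7 (5.74) and read 6.66 after Tbx6 at day 7, 7.47 after PBS at day 30 and 8.03 after Tbx6 at day 30. It rose by at least 1.53 (limma adjusted p = 0.00305 on the deposited values), and without the Tbx6 array of day 30 it did not pass (limma adjusted p = 0.0906).

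Of the 11 tested alpha chains 3 fell and 1 rose. Itga9, which with Itgb1 binds tenascin and other ligands, read 13.30 and 13.32 at day 7 and 12.15 and 11.67 at day 30, after PBS and Tbx6. The day 7 readings differed by 0.018 and both were above the readings of day 30. Itga9 fell by 1.39 (SE 0.26, limma adjusted p = 0.00562). Itga5, the main fibronectin receptor chain, read 8.65 and 8.53 at day 7 and 7.59 and 7.20 at day 30, again with no overlap. It fell by 1.19 (SE 0.25, limma adjusted p = 0.00934), and without the Tbx6 array of day 30 its adjusted p was 0.0679 by limma. Itga2, a collagen receptor chain of platelets and epithelia, read 6.20 and 6.70 at day 7. At day 30 it was at background after PBS (5.34) and just above it after Tbx6 (5.87). It fell by at least 0.49 (limma adjusted p = 0.0335 on the deposited values). With background readings raised to the floor the adjusted p was 0.15 by limma, and the call was also lost without the Tbx6 array of day 7, the PBS array of day 30 or the Tbx6 array of day 30 (limma adjusted p = 0.218, 0.278 and 0.0714). The same held without the filter on low values (limma adjusted p = 0.0636) and with day alone as a term (0.0645).

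The alpha chains Itga3, Itga6 and Itga7, which bind laminins, did not pass the test. Itga7, the laminin receptor chain of striated muscle, read 9.27 and 9.49 at day 7 and 9.43 and 9.18 at day 30, and the readings of the days overlapped (difference -0.078, SE 0.25). Itga6, a laminin receptor chain of endothelium and epithelium, read 11.75 and 11.77 at day 7 and 11.26 and 11.67 at day 30 (difference -0.30, SE 0.25). Itga3, which binds laminins of vessels and epithelia, read 8.34 and 8.67 at day 7 and 7.94 and 7.88 at day 30 (difference -0.59, SE 0.25, limma adjusted p = 0.117). The log2 ratio of Itga7 to Itga5 moved by 1.21 between days after PBS and by 1.01 after Tbx6, that is by 2.32-fold and 2.02-fold toward Itga7. These ratios carry no test.

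**Figure D2:**
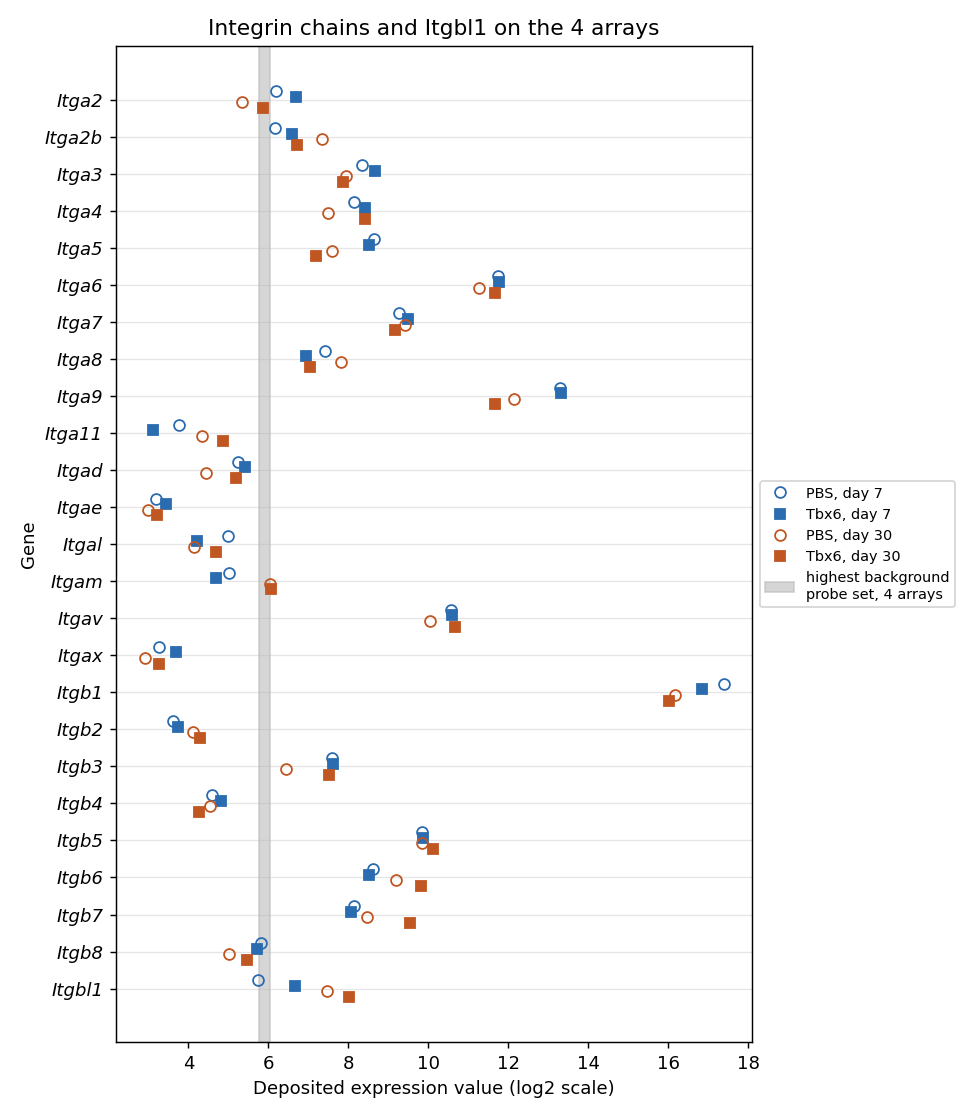
Deposited log2 values (x axis) of the 24 integrin chains and Itgbl1 (y axis) on the 4 arrays, with circles for PBS, squares for Tbx6, blue for day 7 and orange for day 30. The grey band spans the highest background probe set of the 4 arrays, and Itga5, Itga9 and Itgb1 lie lower at day 30 than at day 7, while Itgb6 and Itgbl1 lie higher.

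Other alpha chains of mesenchyme and vessels did not pass. Itgav, which pairs with Itgb1, Itgb3, Itgb5, Itgb6 and Itgb8, lay between 10.04 and 10.66. Itga8, a chain of smooth muscle and mesenchyme that binds nephronectin, lay between 6.95 and 7.81, higher after PBS than after Tbx6 on both days. Itga4, the receptor chain for Vcam1 and fibronectin, read 8.14 and 8.43 at day 7 and 7.48 and 8.43 at day 30. Of these, only Itga4 after PBS at day 30 and Itgav on the same array stood below their other 3 readings by more than 0.5.

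Blood cell chains were few. Itgam, an alpha chain of macrophages and neutrophils, did not clear the floor on either array of day 7 and read 6.05 and 6.08 at day 30, just above it. It rose by at least 0.28 (limma adjusted p = 0.00912 on the deposited values), and with background readings raised to the floor the adjusted p was 0.425 by limma. Itgb2, its only beta partner, was at background on every array. Itga2b, the platelet chain that pairs with Itgb3, read 6.17 and 6.60 at day 7 and 7.34 and 6.72 at day 30 (difference 0.64, SE 0.30, limma adjusted p = 0.15). Of 13 leukocyte markers measured, 9 were tested, 5 rose and 0 fell, where 14.2% and 12.1% of all genes tested did. The 5 were Csf1r, C1qa, C1qb, Lyz2 and Laptm5. For all 13 markers the log2 of summed linear values was 10.91 to 11.41 at day 7 and 13.02 to 13.43 at day 30. The neutrophil markers S100a8 and S100a9 were above background only on the PBS array of day 7 (6.10 and 6.25), and the T and B cell markers Cd3e and Cd79a were at background throughout. Of 7 platelet markers, 4 were tested and 2 rose (Pf4 and Ppbp). The summed values of all 7 were 8.08 to 8.45 at day 7 and 9.45 to 10.66 at day 30. In these bulk samples fewer cells of a type and less RNA per cell cannot be told apart.

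**Figure D3:**
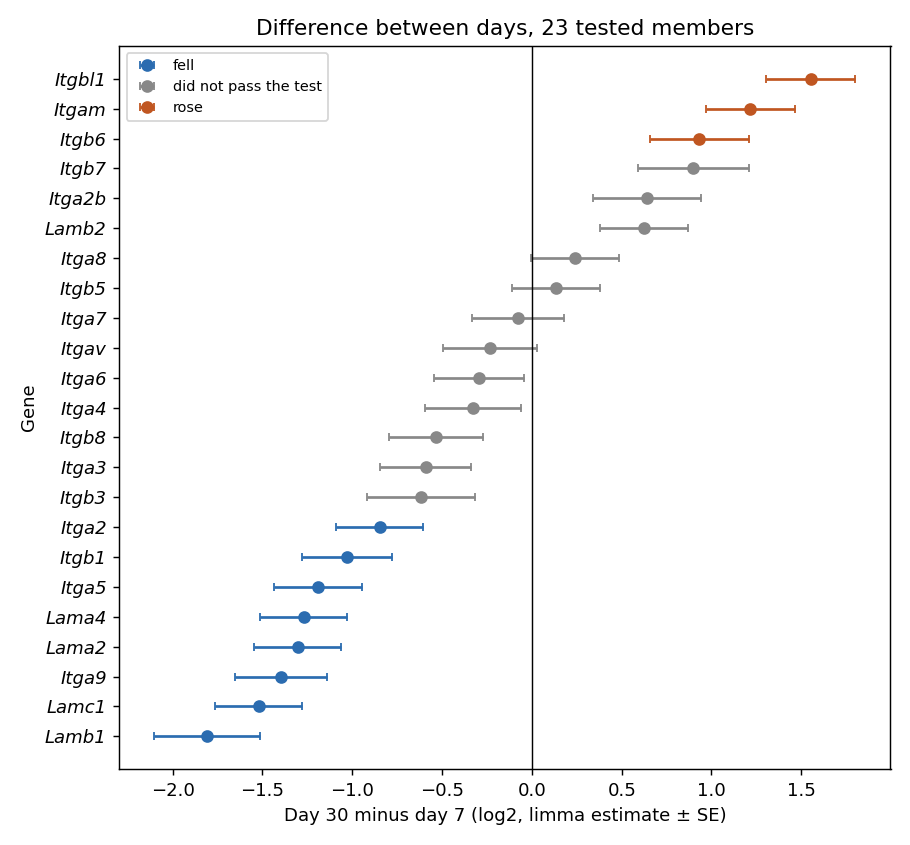
Day 30 minus day 7 (x axis, log2, limma estimate with SE bars) for the 23 tested genes (y axis), in blue where the gene fell, orange where it rose and grey where it did not pass the test. The estimates run from -1.81 for Lamb1 to 1.55 for Itgbl1, and the 8 genes that fell include all tested laminin chains but Lamb2.

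Without a test, 12 of the 23 genes had both day 30 readings below both day 7 readings and 6 had both above, where 33.5% and 32.7% of the 9753 genes did so. Between the PBS arrays alone, 11 of the 23 were at least 1.5-fold lower at day 30 and 4 higher, where 21.5% and 21.9% of all genes tested were. Between the Tbx6 arrays alone, 9 were lower and 4 higher, where 21.2% and 22.9% were. Without the PBS array of day 7, 7 of the 8 falls and 2 of the 3 rises were called again, with 0 new calls. Without the Tbx6 array of day 30, 5 of the 8 falls and 1 of the 3 rises were called again, and Itgb3 was called as a fall in addition. Lama2, Lama4, Lamb1, Lamc1 and Itga9 passed under all 12 alternatives.

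Promoters of Itgb1, Itga5 and Itga9 are shown as the integrin chains that fell with readings above background on every array. Itgb1 is at chr8:128685404-128685703 on the plus strand, Itga5 at chr15:103366742-103367041 on the minus strand and Itga9 at chr9:118711442-118711741 on the plus strand (GRCm38.p6), with GC boxes in capitals.
Itgb1: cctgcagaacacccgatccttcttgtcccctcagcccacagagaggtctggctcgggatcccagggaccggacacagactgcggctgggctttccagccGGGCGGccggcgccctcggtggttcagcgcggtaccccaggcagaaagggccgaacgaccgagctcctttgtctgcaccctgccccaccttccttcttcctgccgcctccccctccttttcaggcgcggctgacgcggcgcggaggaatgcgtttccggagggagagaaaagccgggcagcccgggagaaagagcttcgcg
Itga5: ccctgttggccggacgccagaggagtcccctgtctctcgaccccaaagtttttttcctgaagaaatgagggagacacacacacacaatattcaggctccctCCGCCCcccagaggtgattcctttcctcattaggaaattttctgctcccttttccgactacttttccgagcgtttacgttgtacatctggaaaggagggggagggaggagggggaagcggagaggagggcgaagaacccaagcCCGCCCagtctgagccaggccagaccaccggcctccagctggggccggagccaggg
Itga9: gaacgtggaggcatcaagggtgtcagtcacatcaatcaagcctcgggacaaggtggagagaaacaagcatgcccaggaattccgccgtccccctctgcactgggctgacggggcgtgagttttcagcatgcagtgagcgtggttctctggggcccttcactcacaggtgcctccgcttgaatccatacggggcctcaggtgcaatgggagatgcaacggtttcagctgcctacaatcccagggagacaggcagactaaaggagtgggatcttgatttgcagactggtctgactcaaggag
The Itgb1 window held 1 GC box, 27 CpG dinucleotides and 67.3% G and C, the Itga5 window 2 GC boxes, 13 CpG and 58.7%, and the Itga9 window 0 GC boxes, 10 CpG and 56.7%. Of the 35 genes 22 had a window in the table, some with more than 1, which gave 25 windows. In these, 13 held a GC box and 0 held the letters TATAAA, which 13.6% of all windows held on either strand. The median share of G and C was 59.0% in the 25 windows and 52.7% in all. The AP-1 letters TGANTCA were found in the windows of Itga9, Itga3 and Itgax. The share over all windows was 7.81%. The M-CAT letters CATTCC were found for Itgb1 and Lamb3 (14.7% of all windows). CCAAT, searched on both strands as well, was found for Lamb1, Itga3, Itgax, Itgb8 and Itgbl1 (37.4% of all windows). In no pair of these motifs does one contain the other.

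The partners of integrins and laminins were read from lists of related genes in the same test. Over all 9753 genes of that test, 12.1% fell and 14.2% rose. Of 20 tested genes for other basement membrane proteins, 9 fell and 1 rose, with a median of -0.51. The type IV collagen gene Col4a2 fell by 2.04 (SE 0.24), the nidogen gene Nid2 by 1.93 (SE 0.28), Col18a1, the source of endostatin, by 2.06 (SE 0.27), and Agrn, the proteoglycan agrin, by 1.66 (SE 0.24). These 4 genes fell as Lama2, Lama4, Lamb1 and Lamc1 did, while 10 of the 20 did not pass and Smoc2 rose. Of 18 tested integrin ligands 9 fell, 1 rose and 8 did not pass, with a median of -0.98. Postn, the matricellular periostin, fell by 4.57 (SE 0.33), and Col1a1, Col3a1 and Col1a2, chains of the fibrillar collagens, fell by 3.57, 3.32 and 2.98.

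Inside the cell, 8 of 25 tested adhesion linkers fell, 1 rose and 16 did not pass, with a median of -0.43. Of all genes tested 12.1% fell and 14.2% rose. The scaffold Bcar1 fell by 1.35 (SE 0.31), the actin crosslinker genes Actn4 and Flna by 1.32 (SE 0.25) and 1.24 (SE 0.24), and Zyx, a marker of mature focal adhesions, by 1.30 (SE 0.30). The dystroglycan complex, the other laminin receptor of muscle, had genes that went both ways. Of 17 tested genes 5 rose, 3 fell and 9 did not pass, with a median of 0.087. The dystroglycan gene Dag1 did not pass (difference 0.19). Sspn, a membrane partner of the sarcoglycans, rose by 1.21 (SE 0.25) and Pomt1, which starts the sugar chain on dystroglycan, by 1.14 (SE 0.24), while Sntb1, a syntrophin, fell by 2.07 (SE 0.27) and Sgce, a widely expressed sarcoglycan, by 1.10 (SE 0.24). All 16 named genes of these lists passed at limma adjusted p values of 0.0149 or lower.

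Markers of fibroblasts, endothelium, smooth muscle and pericytes were read in the same test, where 12.1% of all genes fell and 14.2% rose. Of 8 tested fibroblast markers 6 fell and 1 rose. Of 9 endothelial markers 3 fell (Cdh5, Kdr and Cldn5), 1 rose (Flt1) and 5 did not pass. The log2 of the summed endothelial values was 16.61 to 16.72 at day 7 and 15.83 to 15.93 at day 30, while that of the fibroblast markers was 18.78 to 18.82 and 19.05 to 19.13, since Gsn, the 1 marker that rose, did so by 4.11. Of 10 smooth muscle and pericyte markers 1 rose (Vtn), 0 fell and 9 did not pass. The fibroblast list shares 3 genes, Col1a1, Col1a2 and Lum, with the ligand list. The smooth muscle and pericyte list shares 1 gene with it, Vtn, which is also the 1 ligand that rose. The part of these cell types in the laminin and integrin results was not tested.

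The second comparison set Tbx6 against PBS. Over both days, 0 of the 23 genes and 0 of the 9753 passed the adjusted threshold for injection in limma. At an unadjusted p under 0.05 limma had 3 of the 23, against 4.32% of all genes tested. Itgbl1 was higher after Tbx6 by 0.74 (SE 0.25) and Itga4 by 0.61 (SE 0.27), and Itga8 differed by -0.62 (SE 0.25), each with a Benjamini-Hochberg adjusted p of 1 by limma. Each of these 3 had the same sign on both days, which their choice by a fit over both days favours. Tbx6 minus PBS had the same sign on both days in 12 of the 23 genes, where 49.3% of all genes tested did so. It was at least 1.5-fold in the same direction on both days in 0 of the 23, where 1.41% of all genes tested were.

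At day 7 a difference of 1.5-fold or more was seen in 1 of the 23 genes, where 7.23% of all genes tested were higher and 8.41% lower by that much. It was Itgbl1, whose PBS reading was at background and whose Tbx6 reading was higher by at least 0.86. The laminin chains were close to each other on the 2 arrays, with differences of -0.031 for Lama2, -0.088 for Lama4 and 0.12 for Lamb2, and wider ones of -0.37 for Lamc1 and -0.40 for Lamb1. Itgb1 was lower by 0.53 after Tbx6 and Itga8 by 0.47, while Itga2 and Itga2b were higher by 0.50 and 0.43. With 1 array on each side none of these has a test.

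At day 30, 5 of the 23 genes were at least 1.5-fold higher after Tbx6 and 2 lower, where 7.13% and 6.06% of all genes tested were. Higher were Itgb7 (1.07), Itgb3 (1.06), Itga4 (0.94), Itgb6 (0.64) and Itgav (0.61), and lower were Itga8 (-0.77) and Itga2b (-0.61). They include Itgav with its partners Itgb3 and Itgb6, and Itga4 with its partner Itgb7. For Itgb3, Itga4 and Itgav the Tbx6 array read within 0.10 of the Tbx6 array of day 7, and the PBS array of day 30 was the low one. For Itgb7 and Itgb6 the Tbx6 array of day 30 had the top reading of the 4. The laminins differed less, with 0.064 for Lama2, -0.0041 for Lama4, -0.060 for Lamb2, -0.15 for Lamc1 and 0.58 for Lamb1, which lay just under 1.5-fold. The Tbx6 array of day 30 was also higher in the summed values of the leukocyte markers (13.43 against 13.02 after PBS), the platelet markers (10.66 against 9.45) and the fat markers (11.01 against 9.40). Their part in these differences was not tested.

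**Figure D4:**
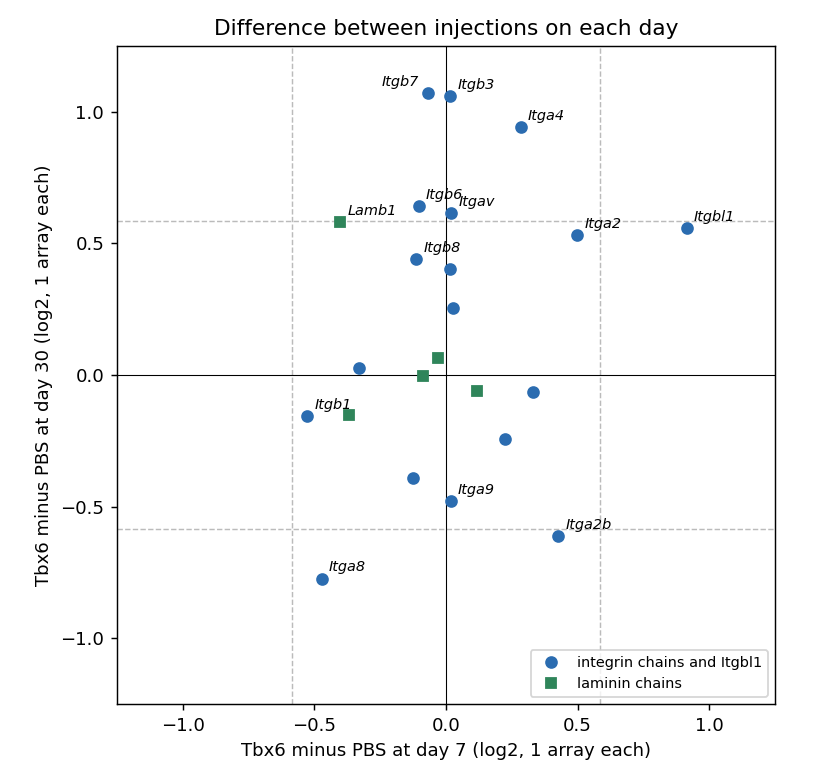
Tbx6 minus PBS (log2) at day 7 (x axis) and at day 30 (y axis) for the 23 tested genes, each from 1 array per group and as deposited, readings at background included, with squares for laminin chains, circles for the others and dashed lines at 1.5-fold. Only Itgbl1 lies past the line at day 7, 5 genes lie above and 2 below the lines at day 30, and 0 genes lie past the same line on both days.

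On position in the genome, the 3 leukocyte alpha chains Itgam, Itgax and Itgad are neighbours on chromosome 7 in the RefSeq gene order. Of these only Itgam rose above background. Itga2b and Itgb3, the pair of the platelet receptor, both lie on chromosome 11. They read differently at day 30, where the PBS array was the higher one for Itga2b (7.34 against 6.72) and the lower one for Itgb3 (6.45 against 7.51). Lama2 and Lama4, which fell alike, both lie on chromosome 10, and Lamb1 and Lamb2 lie on chromosomes 12 and 9.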

How the data were processed

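Heart RNA from 4 arrays (mouse Clariom S, 1 colour) was analysed, 1 array for each injection and day. The authors normalised the deposited log2 values by SST-RMA, per the labels' design text, with Affymetrix Expression Console 1.4, per the submitters' processing notes. The base of the log was read from their range (highest 19.93). Arrays have no depth, and their number limits precision. Of 28846 probe sets, 19572 had 1 symbol in the platform annotation and 0 had several, and all 19572 matched RefSeq (GRCm38.p6) by Entrez identifier and symbol. The remaining 9274 are controls or unnamed. Of several probe sets of a gene (55 genes) the one with the highest mean was kept.

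Genes with a mean at or above the median (9753) were fitted with limma 3.58.1 in R 4.3.3 (lmFit, eBayes, injection and day as terms, two-sided, Benjamini-Hochberg, threshold 0.05). Single-array differences are counted at 1.5-fold and have no test. Differences with a reading at background are bounds. The members and lists were chosen with earlier results of these data known. Named genes are all members and, per related list, up to 4 that passed the day test with the largest differences and readings above background. On simulated data for the day comparison (9753 genes, Gaussian noise) 66% of 100 genes changed by 1 and 100% of 100 changed by 2 log2 units were recovered, with 12 unchanged genes called. The noise used the fit's own variances and held no effect shared by a whole array. These rates are therefore not the error rates of the real arrays. Python 3.11.15, numpy 2.4.6, pandas 2.3.3 and matplotlib 3.10.9 were used for counts and plots. Alternatives were other normalisations, filters, a background floor, other models and each array left out.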

Additional observations from a re-analysis of the deposited data

How the results depend on the processing

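The counts of genes that fell stayed between 6 and 8 under all alternatives, 6 to 7 with 1 array left out in turn and day alone as a term. The genes that rose numbered 1 to 4 with 1 array left out and 5 with a variance trend in eBayes, which added Itgb7 and Lamb2. For injection 0 members passed under every alternative run. Differences of at least 1.5-fold at day 7 numbered 4 without the filter on low values and 0 at 2-fold, and at day 30 2 at 2-fold. The genes added at day 7 were Itga11, Itgal and Lama1. They were at background on every array, so these are not measured differences. The median day difference ran from -0.53 (PBS arrays alone) to -0.10 (Tbx6 arrays alone). Of the 11 called genes 5 kept their call throughout, and the limits of the others stand in the report. Day differences that changed sign were those of genes that did not pass. With 1 array left out they ran from -0.80 to 0.14 for Itga4, -0.20 to 0.044 for Itga7, -0.15 to 0.63 for Itga8 and -0.54 to 0.074 for Itgav. With background readings raised to the floor Itgb8 was at 0.13 for day and -0.15 for injection, values set largely by the floors of 3 arrays and not measured differences, and with quantile normalisation the injection difference of Itga7 was 0.0062. The cause was not tested. No pairing by animal was possible, because the arrays of day 7 and day 30 come from different hearts. The injection term already sets the days against each other within each injection. Readings near background limit Itga2, Itgam, Itgb8 and Itgbl1.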
